A study of Homo sapiens with 8 samples.

Results

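In PC-3 cells overexpressing Pbx4, 4637 Pbx4 peaks lay at promoters without an overlapping HoxC5 peak, and these Pbx4-only promoter sites are described here. They were chosen by 3 readouts of the peak lists and the annotation. A peak of the Pbx4 list had to be under 1000 bp wide on chromosomes 1 to 22 or X, it could share no base with a peak of any of the 3 HoxC5 lists, and its summit (the position of highest enrichment) had to lie within 1 kb of the transcriptional start site (TSS) of a protein-coding transcript. Of 153620 Pbx4 peaks, 153551 were on these chromosomes, 151032 of those were narrow enough and 108978 of those overlapped no HoxC5 peak. The 4637 sites made up 4.25% of these Pbx4-only peaks, 3.02% of all Pbx4 peaks and 48.5% of the 9567 Pbx4 peaks that met the width and promoter limits. The other 4930 promoter peaks overlapped HoxC5 and served as the comparison, together with 53022 Pbx4-only peaks inside protein-coding genes more than 1 kb from any such TSS. Pbx4 strength and HoxC5 overlap chose the sites, so both are described without a test, and tests were kept to the reference sequence and the annotation.

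The cells were PC-3, a human cell line established from prostate cancer. ChIP-Seq was done with an anti-PBX4 antibody in cells with Pbx4 overexpression (1 library), and with an anti-Hoxc5 antibody in cells with Hoxc5 overexpression (1 library) and in control cells (2 libraries, endogenous replicates 1 and 2). The overexpressed proteins carried a Flag tag, and endogenous Pbx4 was not profiled in the libraries used here. The 3 HoxC5 lists held 67196 peaks (overexpressed), 2525 peaks (replicate 1) and 170 peaks (replicate 2), and 4914 of the 4930 shared promoter peaks overlapped the overexpressed list. Pbx4 has 1 library and HoxC5 and Pbx4 were profiled in different cells, so every p-value compares peaks of this library and not conditions. The absence of a HoxC5 peak also depends on the threshold of each list, since the highest q-value was 0.00997 in the overexpressed HoxC5 list against 0.0490 in the Pbx4 list. The study's methods give only a range of average depth for its libraries, and the lists carry no read total, so the depth of a single library cannot be given.

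Pbx proteins are homeodomain proteins of the TALE class, which carry an extra loop in the homeodomain. They bind DNA with Hox proteins and with the related TALE proteins Meis and Prep, and these partners lengthen and sharpen the sequence that is recognised. Pbx and Meis also meet at sites that lack a Hox word, and at CCAAT boxes, the promoter element of the trimeric factor NF-Y, the last letters of which can form a Pbx half-site. Fos and Jun form AP-1, which marks many enhancers of epithelial cancer cells, as TEAD, forkhead and Runx factors do. Sp/KLF, Ets and NRF1 factors are known mostly from CpG-rich promoters of widely expressed genes.

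The sequences of 7 sites show the kinds of word found under the summits. Each run is the plus strand of hg19 (GRCh37) from 50 bp before to 50 bp after the summit, and capitals mark the words that were more frequent at the summits than beside them, named below. ABCA7, SIX3 and KCNJ10 were the strongest sites by fold enrichment. CCR2 and PMP22 were the strongest sites with the AP-1 word and the forkhead word. SPRY1 was the strongest with the Pbx-Meis word and ERAP1 the strongest CpG-rich site with a CCAAT box, and these latter 2 sites, and SIX3 and KCNJ10 as printed examples, were picked after the values were seen.
ABCA7 (chr19:1041061-1041161): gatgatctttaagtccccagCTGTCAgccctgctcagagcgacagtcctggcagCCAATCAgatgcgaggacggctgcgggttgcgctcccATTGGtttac
SIX3 (chr2:45168691-45168791): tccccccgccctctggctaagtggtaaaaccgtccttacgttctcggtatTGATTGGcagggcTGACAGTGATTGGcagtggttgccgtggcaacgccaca
KCNJ10 (chr1:160012846-160012946): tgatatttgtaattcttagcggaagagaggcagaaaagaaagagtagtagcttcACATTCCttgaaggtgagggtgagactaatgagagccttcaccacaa
CCR2 (chr3:46399840-46399940): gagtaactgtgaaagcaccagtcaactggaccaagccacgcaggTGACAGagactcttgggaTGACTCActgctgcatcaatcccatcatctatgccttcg
PMP22 (chr17:15176551-15176651): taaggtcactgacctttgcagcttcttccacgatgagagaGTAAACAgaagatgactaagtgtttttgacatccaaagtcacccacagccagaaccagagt
SPRY1 (chr4:124318550-124318650): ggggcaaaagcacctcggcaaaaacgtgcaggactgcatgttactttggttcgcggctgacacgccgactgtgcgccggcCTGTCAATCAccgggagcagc
ERAP1 (chr5:96144083-96144183): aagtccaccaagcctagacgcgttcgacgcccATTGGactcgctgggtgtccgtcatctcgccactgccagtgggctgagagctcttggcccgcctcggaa

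The SIX3 site, upstream of a homeodomain factor gene of eye and forebrain development, held 2 copies of CCAATCA, the CCAAT box that ends in a Pbx half-site, at 0 to 6 bp and 19 to 25 bp from the summit on the reverse strand. The Meis word TGACAG stood directly before the second copy, at 13 to 18 bp. At ABCA7, which encodes a lipid transporter, CCAATCA began 4 bp from the summit, the Meis word ended 25 bp before the summit and another CCAAT box lay at 41 to 45 bp. At KCNJ10, which encodes a potassium channel, the TEAD word ACATTCC lay at 4 to 10 bp. At CCR2, a chemokine receptor gene, the Meis word ended 1 bp before the summit and the AP-1 word TGACTCA lay at 12 to 18 bp. At PMP22, a myelin protein gene, the forkhead word TGTTTAC lay 10 to 4 bp before the summit. At SPRY1, an inhibitor of growth factor signalling, the Pbx-Meis word TGATTGAC lay at 32 to 39 bp and overlapped the Meis word. At ERAP1, a peptidase gene of antigen processing, the only capital run was a CCAAT box 18 to 14 bp before the summit.

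Fold enrichment, the ratio of the peak caller to local background, ran from 2.19 to 29.4 among the sites, with a median of 5.43 and quartiles of 4.35 and 7.10. The median was 5.47 at the shared promoter peaks, 5.84 at the Pbx4-only peaks inside genes and 6.36 over all Pbx4 peaks. Few sites were among the strongest Pbx4 peaks, with 10 in the top 1000 by fold, 95 in the top 10000 and 1557 (33.6%) in the upper 76810 of the list. The median −log10 q was 6.94 at the sites and 8.63 at the shared peaks, and the median width was 268 bp against 324 bp. When all promoter peaks were put into 10 classes by fold, the percentage that was Pbx4-only was lowest at both ends, at 36.1% (95% exact Clopper-Pearson interval 33.1 to 39.2) in the weakest class and 37.2% (34.2 to 40.4) in the strongest. It was highest, at 56.0% (52.8 to 59.2), in the class with folds from 5.45 to 6.02. The intervals cover counting error only. The rule used presence or absence of peaks, and these values are given as a description.

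The 10 sites of highest fold were each next to a different gene. The peak at ABCA7 spanned chr19:1040919-1041271, with its summit in an intron 90 bp upstream of the nearest TSS, a fold of 29.4 and a −log10 q of 74.0, and it ranked 28 of all Pbx4 peaks. The peak at SIX3 spanned chr2:45168587-45168914, outside genes and 100 bp upstream of the TSS, with a fold of 26.7 and a rank of 71. The peak at KCNJ10 spanned chr1:160012679-160013341, in an intron 602 bp upstream of the nearest TSS, with a fold of 23.5. These 3 sites were 10.7 to 17.1 kb from the nearest HoxC5 peak of any list. The other 7 lay at HEATR5A (fold 22.05), the lysosomal transporter gene MFSD1 (21.5), the protease inhibitor family gene WFDC6 (21.01), the vesicle tethering gene VPS41 (20.9), PMP22 (20.6), CCR2 (20.6) and the nucleotide receptor gene P2RY6 (20.4). Their gaps to the nearest HoxC5 peak ran from 2824 bp at CCR2 to 48857 bp at WFDC6. Of the 10 sites, only SIX3 (100 bp) and WFDC6 (881 bp) had the TSS of a canonical transcript of any gene within 1 kb. At the others the nearest canonical TSS was farther, up to 83675 bp at HEATR5A and 113621 bp at VPS41.

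Members close to each limit of the rule were as follows. The peaks at ABCG1 (999 bp), RCC1 (997 bp) and GBP1 (993 bp) were just narrow enough, while those at ZFHX3 (1003 bp) and CFAP45 (1043 bp) were just too wide. The summits at TNKS2, CYRIB and GORASP2 lay 1000 bp from a TSS and were kept, while those at EVA1A, GATD3 and KDM2A, the latter 2 at 1002 bp, were not. The peak at CKAP2 touched a HoxC5 peak without sharing a base and was kept, while those at KIAA2026 and NOLC1 shared 1 bp and were not.

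Sites without an overlapping HoxC5 peak were often near one. The median gap to the nearest HoxC5 peak was 1909 bp, with 164 sites (3.54%) within 100 bp, 1155 (24.9%) within 500 bp, 1902 (41.0%) within 1 kb and 2853 (61.5%) within 5 kb. At the level of genes, 2632 of the 3915 genes with a Pbx4-only promoter site (67.2%) also had a HoxC5 summit within 1 kb of one of their TSSs, against 53.3% of all protein-coding genes, and 1283 (32.8%) had none. Genes with more TSSs have more room for both, and the median number of TSS positions was 4 in the genes with a site and 3 over all genes.

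The Pbx4-only promoter sites were spread more evenly around the TSS than the shared ones and lay more often inside genes. The median distance to the nearest TSS was 496 bp at the sites and 179 bp at the shared peaks. In the 100 bp upstream of the TSS lay 10.8% of the sites and 22.8% of the shared peaks. Downstream, the sites fell to 2.54% in the bin from 200 to 300 bp and came back to 5.91% in the bin from 900 to 1000 bp, where 2.27% of the shared peaks lay. Summits were upstream of the nearest TSS at 2456 sites (53.0%) and 3307 shared peaks (67.1%), a difference of −14.1 percentage points (95% interval −16.1 to −12.2, two-sided Fisher's exact test, adjusted p = 4.22e-45 with Benjamini-Hochberg adjustment over 4 tests).

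**Figure D1:**
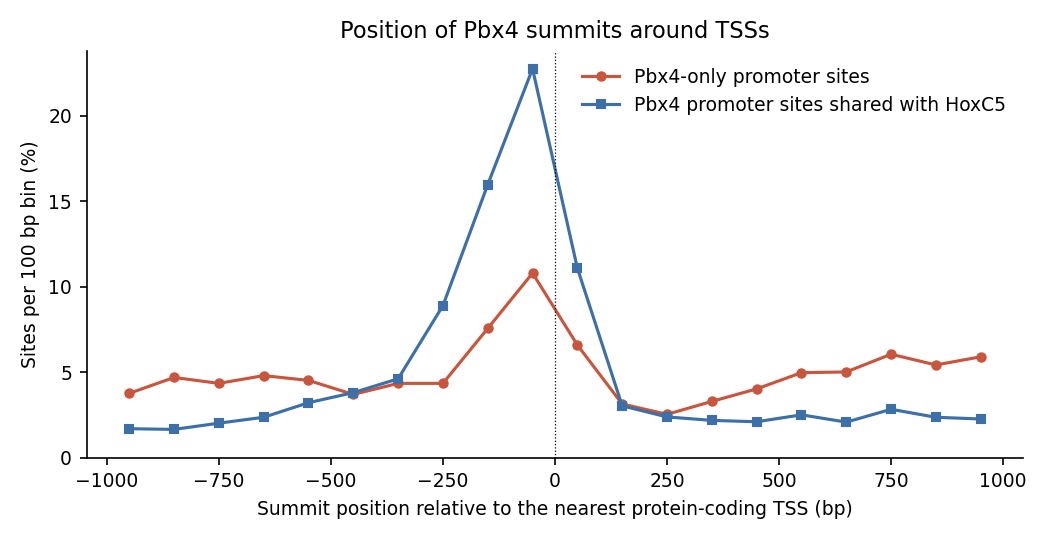
The x axis is the position of the Pbx4 summit relative to the nearest protein-coding TSS in bins of 100 bp, upstream to the left, and the y axis is the percentage of the 4637 Pbx4-only promoter sites (circles) or of the 4930 shared promoter peaks (squares) in each bin. Both classes have their highest point just upstream of the TSS, at 10.8% and 22.8%. The Pbx4-only sites lie above the shared peaks beyond about 500 bp upstream and from about 100 bp downstream, at first by little.

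By annotation (GENCODE 44 on GRCh37), 3593 sites (77.5%) had their summit inside a protein-coding gene, 2848 (61.4%) in an intron and 745 (16.1%) in an exon, with 589 (12.7%) in a UTR and 182 (3.92%) in coding sequence. The other 1044 sites (22.5%) lay outside protein-coding genes. Of the shared peaks, 63.8% were inside a gene, 42.4% in an intron and 36.2% outside. Many sites were at TSSs other than that of the canonical transcript, the 1 that the annotation chooses for each gene. A canonical TSS was within 1 kb of 2322 sites (50.1%) and 3641 shared peaks (73.9%), and more than 5 kb from 1356 sites (29.2%) and 753 shared peaks (15.3%). Divergent promoters, with protein-coding TSSs on both strands within 1 kb of the summit, held 221 sites (4.77%) and 474 shared peaks (9.61%), a difference of −4.85 points (95% interval −5.88 to −3.82, two-sided Fisher's exact test, adjusted p = 2.92e-20).

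CpG-rich sequence was uncommon at the Pbx4-only promoter sites. In windows reaching 150 bp to each side of the summit, the median G+C content was 44.5% at the sites, 53.8% at the shared peaks and 40.2% at the Pbx4-only peaks inside genes. The median ratio of observed to expected CpG was 0.270, 0.635 and 0.138. A window counted as CpG-rich at a G+C content of at least 55% and a ratio of at least 0.6, as 54.4% of the windows at all 78394 protein-coding TSS positions did. This was so for 315 sites (6.79%, 95% exact interval 6.09 to 7.56) and 1782 shared peaks (36.1%), a difference of −29.4 points (95% interval −30.9 to −27.8, two-sided Fisher's exact test, adjusted p = 4.80e-286). It was so for 45 of the Pbx4-only peaks inside genes (0.0849%), 6.71 points fewer than at the sites (95% interval 6.02 to 7.47, two-sided Fisher's exact test, adjusted p = 4.06e-293). The gap from the shared peaks was present at each distance from the TSS. Within 200 bp it was 17.3% of 1300 sites against 50.7% of 2602 shared peaks, from 200 to under 500 bp 4.43% against 30.5%, and from 800 to 1000 bp 1.41% against 4.56%.

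Words of 5 to 9 letters that known factors bind were looked for on both strands, up to 50 bp to each side of the summit and in a window of equal size 1 kb to its right (the flank). Of 21 words, 9 were more frequent at the summits than in the flanks and 3 were less frequent (two-sided exact McNemar test, Benjamini-Hochberg over the 21 words). The AP-1 word TGACTCA was in 448 summit windows (9.66%) and 65 flanks (1.40%, exact McNemar adjusted p = 7.07e-72), and in 1.24% of windows at all protein-coding TSSs. The Meis word TGACAG was in 534 summit windows (11.5%) and 285 flanks (6.15%, exact McNemar adjusted p = 9.79e-19), and in 5.46% of all TSS windows. The CCAAT box, written CCAAT, was in 15.6% of summit windows and 11.5% of flanks (exact McNemar adjusted p = 2.85e-08), and in 10.1% of all TSS windows. Its form CCAATCA, which CCAAT overlaps in full, was in 2.05% and 1.27% (exact McNemar adjusted p = 0.00785), and in 1.52% of all TSS windows. That call was lost when Pbx4 peaks had to reach a −log10 q of 5 or a fold of 5 (exact McNemar adjusted p = 0.270 and 0.0539).

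Among the enhancer factors, the forkhead word TGTTTAC was in 139 summit windows (2.998%) and 62 flanks (1.34%, exact McNemar adjusted p = 1.73e-07). The Runx word TGTGGTT was in 142 (3.06%) and 67 (1.44%, adjusted p = 3.40e-07), and the TEAD word ACATTCC in 124 (2.67%) and 57 (1.23%, adjusted p = 1.21e-06), all by the same exact test. In all TSS windows their shares were 0.837%, 1.16% and 0.853%. Within 500 bp of a TSS the TEAD difference was 0.513 points and no longer called (exact McNemar adjusted p = 0.306). The AP-1, TEAD, forkhead or Runx word, any of them, was in 17.3% of summit windows and 5.31% of flanks. The E-box CACGTG, bound by Myc and USF, was in 1.94% of summit windows and 1.27% of flanks (exact McNemar adjusted p = 0.0229), and in 2.78% of all TSS windows, a call that 8 of the alternatives did not keep.

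The Hox-Pbx words were rare. The Pbx-Meis word TGATTGAC, the end of which is the start of the Meis word, was in 21 summit windows (0.453%) and 2 flanks (0.0431%, exact McNemar adjusted p = 0.000139), and in 0.120% of all TSS windows. Of the Hox-Pbx words, TGATTGAT occurred at 11 summits (0.237%) and in 10 flanks (0.216%, exact McNemar adjusted p = 1), and TGATTAAT in 22 (0.474%) and 15 (0.323%, exact McNemar adjusted p = 0.378). Each was in 0.107% of all TSS windows. The homeodomain word TAATGA was in 5.28% of summit windows and 4.44% of flanks (exact McNemar adjusted p = 0.0930), and TAATTA was less frequent at the summits, at 1.40% against 3.41% (exact McNemar adjusted p = 2.13e-09). Their shares in all TSS windows were 1.78% and 0.723%. A Hox, Pbx or Meis word of any kind was in 18.2% of summit windows and 13.6% of flanks, and 48.5% of summit windows held any of the 21 words, against 38.5% of flanks.

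**Figure D2:**
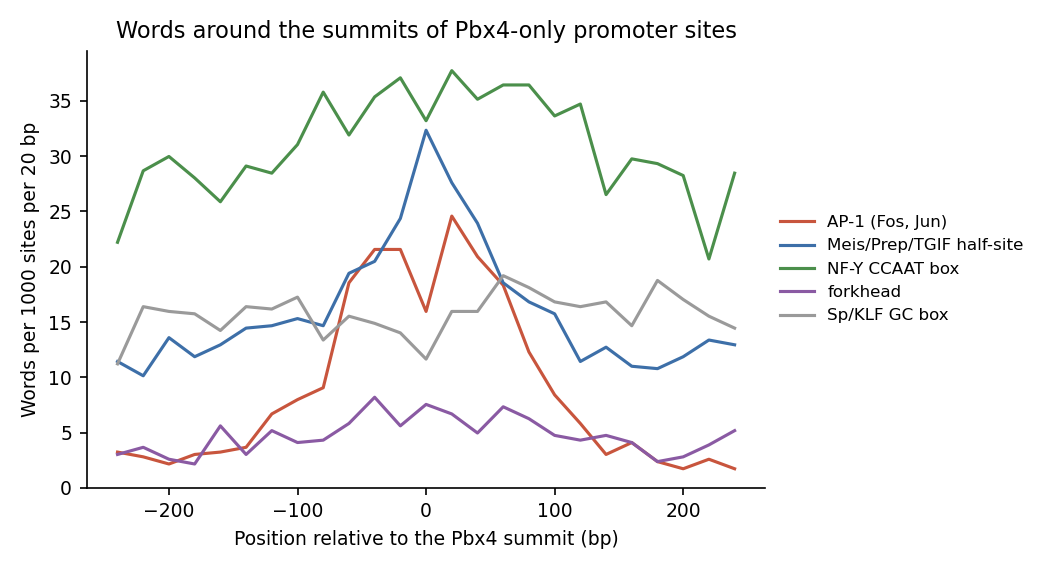
The x axis is the position relative to the summit of the 4637 Pbx4-only promoter sites in bins of 20 bp, and the y axis is the number of words centred there per 1000 sites, on either strand. The Meis word peaks on the summit at 32.3 per 1000 sites, the AP-1 word reaches 24.6 in the bin from 10 to 30 bp with 16.0 in the central bin, and the Sp/KLF word, at 11.6 in the central bin, has no peak there.

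The Sp/KLF word GGGCGG, which is in 27.4% of all TSS windows, was in 5.46% of summit windows and 9.25% of flanks (exact McNemar adjusted p = 1.72e-11). The direction depended on the distance to the TSS. For summits within 500 bp of a TSS it was 2.35 points more frequent at the summit (exact McNemar adjusted p = 0.00622). Among the 1300 sites within 200 bp it was in 11.7% of summit windows and 4.77% of flanks, and among the 2299 sites from 500 to 1000 bp in 2.17% and 12.2%. The flank lies 1 kb to the right of the summit, so for sites far from a TSS the flank can itself fall at the TSS. The part of this placement in the values was not tested. The CTCF core word AGGGGGC was in 0.841% of summit windows and 2.35% of flanks (exact McNemar adjusted p = 2.85e-08), a call lost within 500 bp of a TSS (adjusted p = 0.352), and in 4.85% of all TSS windows. The words of Ets (CCGGAAG), NRF1 (GCGCATGC), CREB (TGACGTCA), ZBTB33 (CTCGCGAG), YY1 (AAGATGGCG) and ZNF143 (ACTACAATT) did not pass the test in either direction.

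Against the shared promoter peaks, 10 words were less frequent at the Pbx4-only promoter sites and 3 were more frequent (two-sided Fisher's exact test, Benjamini-Hochberg over the 21 words). The largest difference in points was that of the Sp/KLF word, followed by the CCAAT box. GGGCGG was in 5.46% of the sites and 17.9% of the shared peaks (difference −12.5 points, 95% interval −13.7 to −11.2, Fisher's exact adjusted p = 3.58e-82). The Ets word was in 0.906% against 3.85% (Fisher's exact adjusted p = 3.15e-21). The CTCF word was in 0.841% against 3.25% (Fisher's exact adjusted p = 1.42e-16). CCAAT was in 15.6% against 21.4% (difference −5.74 points, 95% interval −7.29 to −4.19, Fisher's exact adjusted p = 2.26e-12), and CCAATCA in 2.05% against 4.79% (Fisher's exact adjusted p = 6.00e-13).

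The composite words of Pbx were also less frequent than at the shared peaks. The Pbx-Meis word TGATTGAC was in 0.453% of the sites and 1.66% of the shared peaks (difference −1.21 points, 95% interval −1.64 to −0.810, Fisher's exact adjusted p = 1.33e-08). The Hox-Pbx word TGATTGAT was in 0.237% against 0.751% (Fisher's exact adjusted p = 0.00104), a call lost within 500 bp of a TSS (adjusted p = 0.171), whereas TGATTAAT was in 0.474% against 0.304% (Fisher's exact adjusted p = 0.236). The Meis word did not separate the classes, at 11.5% and 11.9%, with an interval of the difference from −1.70 to 0.881 points (Fisher's exact adjusted p = 0.637).

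The enhancer words differed by less. The forkhead word was in 2.998% of the sites and 1.95% of the shared peaks (Fisher's exact adjusted p = 0.00196), the Runx word in 3.06% against 2.07% (adjusted p = 0.00429) and the TEAD word in 2.67% against 1.99% (adjusted p = 0.0477). The TEAD call was lost with stricter Pbx4 or HoxC5 thresholds, within 500 bp of a TSS, with basic transcripts only, without the width limit and with 25 bp on either side (Fisher's exact adjusted p from 0.0509 to 0.430). With 25 bp on either side the forkhead and Runx calls were lost too (Fisher's exact adjusted p = 0.275 and 0.178), and the Runx call also with Pbx4 or HoxC5 folds of at least 5 (Fisher's exact adjusted p = 0.202 and 0.286). For the AP-1 word the shares were 9.66% and 9.31%, with an interval of the difference from −0.823 to 1.53 points (Fisher's exact adjusted p = 0.637). The AP-1 call went either way with the setting. The AP-1 word was 2.43 points more frequent at the sites when a HoxC5 peak within 500 bp counted as shared (Fisher's exact adjusted p = 0.000356), and 2.58 points more frequent within 500 bp of a TSS (Fisher's exact adjusted p = 0.00109). These comparisons also moved with base composition. Peaks were therefore also compared within 10 classes of the G+C content of 500 bp on either side (Mantel-Haenszel chi-square test). There 0 of the 21 words passed as more frequent at the sites, and 0 did at an unadjusted p under 0.05. The Runx difference became −0.125 points (Mantel-Haenszel chi-square test, adjusted p = 0.661) and the AP-1 difference −3.52 points (Mantel-Haenszel chi-square test, adjusted p = 0.000981).

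Against the 53022 Pbx4-only peaks inside genes, 9 words were more frequent at the promoter sites and 5 less frequent. GGGCGG was in 5.46% against 0.736% (Fisher's exact adjusted p = 6.59e-107), and CCAATCA in 2.05% against 1.15% (Fisher's exact adjusted p = 2.67e-06). The AP-1 word was less frequent at the promoter sites, at 9.66% against 16.1% (difference −6.40 points, 95% interval −7.28 to −5.47, Fisher's exact adjusted p = 4.16e-33). The forkhead word (2.998% against 3.83%, Fisher's exact adjusted p = 0.00713) and the TEAD word (2.67% against 3.86%, Fisher's exact adjusted p = 7.19e-05) were less frequent too, the former neither at a Pbx4 fold of at least 5 (Fisher's exact adjusted p = 0.417) nor within classes of G+C content (Mantel-Haenszel chi-square test, adjusted p = 0.395). The Meis word was in 11.5% against 10.5% (Fisher's exact adjusted p = 0.0485), and with 1 peak per gene this difference was −0.0972 points (adjusted p = 1).

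Among themselves, the Pbx4-only promoter sites differed in words with their strength. The AP-1 word was in 6.45% of the lowest of 4 classes of sites by fold and in 7.53%, 9.92% and 14.8% of the following classes, with intervals of 5.11 to 8.02% and 12.8 to 16.9% at the ends. The Meis word went from 8.43% to 14.4%, the TEAD word from 1.72% to 3.88% and the forkhead word from 1.63% to 4.06%. Runx was at 3.10% and 3.28%, and the share of CpG-rich windows was 7.997% in the lowest and 5.09% in the highest class. These are descriptions, with no test.

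The AP-1 word also varied with the gap to HoxC5. It was in 6.10% (5.07 to 7.27) of the 1902 sites with a HoxC5 peak within 1 kb, in 11.6% (9.60 to 13.8) of the 951 sites at 1 to 5 kb and in 12.4% (10.9 to 14.1) of the 1784 sites beyond 5 kb. The median fold moved in the same order, at 4.94, 5.59 and 5.83, and its part in the AP-1 values was not tested. The Meis word was in 11.5%, 10.1% and 12.3%, and CCAAT in 16.1%, 14.2% and 15.9%, with overlapping intervals. At sites near a canonical TSS the AP-1 word was in 7.41%, and at sites near other TSSs only it was in 11.9%.

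The 315 CpG-rich sites were split from the others by their base composition, after values were seen, and their words are given without a test. CCAAT was in 31.4% (26.3 to 36.9) of their summit windows against 14.5% (13.4 to 15.6) of the other 4322 sites, and CCAATCA in 7.30% against 1.67%. GGGCGG was in 41.9% against 2.80%. A split by base composition by itself shifts the shares of such words. The Meis word was in 18.1% (14.003 to 22.8) against 11.04% (10.1 to 12.01), while the AP-1 word was in 2.86% (1.31 to 5.35) against 10.2% (9.27 to 11.1). ERAP1, with a fold of 19.8 and a HoxC5 peak 87 bp away, was the strongest CpG-rich site with a CCAAT box.

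Pbx4-only promoter sites lay at 3915 of 19748 protein-coding genes (19.8%) and shared ones at 4504 (22.8%), and these percentages are the background for the gene lists below. Both kinds were at 1314 genes, 33.6% of the genes with a Pbx4-only site. Of the 3915 genes, 3166 had 1 site, 570 had 2 and 179 had 3 or more. SPATS2L had 7, and CREB5, a CRE-binding factor, MEF2C, a MADS-box factor, PRKCH, a protein kinase C, and TCF4, an E-box factor, had 6 each. The share of genes with a site rose with the number of TSS positions, from 10.3% of the 4919 genes with 1 to 15.2% with 2 or 3, 25.4% with 4 to 7 and 38.9% with 8 or more, so the median number of TSS positions is given with each list.

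Of the genes of the Hox and TALE families themselves, 7 of 39 HOX cluster genes (17.9%, median of 1 TSS position) and 3 of 18 TALE genes (16.7%, median of 4) had a Pbx4-only site. HOXC5 itself was one of them, with a peak at chr12:54426607-54426790, 145 bp upstream of the TSS, a fold of 4.98 and a HoxC5 peak 98 bp away. HOXB3 (fold 8.25) and HOXC6 (5.94) were others, with the nearest canonical TSS of any gene 11849 and 5431 bp from the summit. The TALE genes included TGIF1 (fold 9.65) and MEIS2 (3.81), and both of these also had a shared peak. Of the 11 AP-1 genes (median of 3), BATF alone had a site (fold 11.97), while 5 had a shared peak.

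Lists with a share well above 19.8% included the prostate luminal and androgen response genes, with 7 of 15 (46.7%, 95% exact interval 21.3 to 73.4, median of 5 TSS positions). FKBP5, a co-chaperone of steroid receptors, had a fold of 11.8, KLK2, a prostate kallikrein gene, 11.4 and TMPRSS2, an androgen-induced protease gene, 8.77. The nearest HoxC5 peak was 788 bp away at FKBP5, 36134 bp at KLK2 and 28148 bp at TMPRSS2. Of the 7 genes, 4 also had a shared peak. The nearest canonical TSS of any gene was 130 bp from the summit at FKBP5, 6307 bp at KLK2 and 22387 bp at TMPRSS2. Of the TGF-β ligands, receptors and SMADs, 9 of 25 (36.0%, 18.0 to 57.5, median of 4) had a site, including TGFBR1 (fold 9.95), BMPR1B (7.39) and SMAD1 (7.18). Their summits were 22745, 236945 and 1435 bp from the nearest canonical TSS of any gene. The study raises this pathway from endogenous HoxC5 binding and from RT-PCR. The sites here overlap no HoxC5 peak by the rule that chose them, so they do not bear on that binding. The nearest HoxC5 peak was 14325 bp away at TGFBR1, 17842 bp at BMPR1B and 739 bp at SMAD1. Of the 9 genes, 2 also had a shared peak. Of the proteasome genes it was 14 of 39 (35.9%, 21.2 to 52.8, median of 4), with PSMA7 at a fold of 13.3, PSMB11 at 9.54 and PSMC1 at 8.84. Of the heat shock and DnaJ genes it was 20 of 69 (29.0%, 18.7 to 41.2, median of 2), with HSPB2 at 15.7, DNAJB5 at 15.6 and HSPB8 at 15.4. Of the telomerase and shelterin genes, 5 of 15 (33.3%, 11.8 to 61.6, median of 6) had a site, including DKC1 (7.11), NOP10 (6.46) and STN1 (6.35). Class I HDACs and corepressors had 7 of 24 (29.2%, 12.6 to 51.1, median of 7), including SIN3A (7.22), CHD4 (5.72) and RBBP7 (5.33). Shared peaks were at 26.7% (prostate luminal), 28.0% (TGF-β), 43.6% (proteasome), 34.8% (heat shock), 46.7% (telomerase) and 54.2% (HDAC) of these lists. All were above the 22.8% of all genes. Against the 27.5% of genes with 4 to 7 TSS positions, the prostate luminal share was lower and the TGF-β share was close. Only the prostate luminal and TGF-β lists had more genes with a Pbx4-only site than with a shared peak. The Pbx4-only intervals of the TGF-β, heat shock, telomerase and HDAC lists include 19.8%, and those of the prostate luminal and proteasome lists do not. All 6 Pbx4-only intervals include the 25.4% of genes with 4 to 7 TSS positions. The heat shock list has a median of 2, and its interval does not include the 15.2% of genes with 2 or 3. No list was tested.

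Lists below the background were largely housekeeping and clustered families. A Pbx4-only site was at 6 of 57 DNA replication and cell cycle genes (10.5%, median of 4, led by BUB1 at a fold of 11.1), 9 of 82 cytosolic ribosomal protein genes (10.98%, median of 5, led by RPL6 at 9.77) and 10 of 84 oxidative phosphorylation genes (11.9%, median of 3, led by ATP5MG at 7.22). It was at 10 of 78 mitochondrial ribosomal protein genes (12.8%, median of 2, led by MRPL14 at 8.19) and 59 of 507 ZNF-named zinc finger genes (11.6%, median of 3, led by ZNF460 at 15.3). The exact intervals of the replication, oxidative phosphorylation and mitochondrial ribosomal lists include 19.8%. Those of the oxidative phosphorylation and mitochondrial ribosomal lists also include the 15.2% of genes with 2 or 3 TSS positions, and that of the ZNF list does not. The replication and cytosolic ribosomal intervals do not include the 25.4% of genes with 4 to 7. Shared peaks were at 35.1%, 24.4%, 27.4%, 34.6% and 26.2% of these lists, each above the 22.8% of all genes. For the cytosolic ribosomal list, 24.4% was close to this value and below the 27.5% of genes with 4 to 7 TSS positions. These shared shares were not tested. The contrast was widest for the histone cluster genes, with a Pbx4-only site at 5 of 68 (7.35%, median of 1, led by H2BC5 at 7.82) and a shared peak at 34 (50%). Splicing factor genes (10 of 56, 17.9%, median of 2.5, led by SNRPE at 9.48) and aminoacyl-tRNA synthetase genes (8 of 37, 21.6%, median of 5, led by YARS2 at 9.23) were near the background.

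In the keratin and olfactory receptor clusters the order was the other way. Keratin and keratin-associated protein genes had a Pbx4-only site at 22 of 149 (14.8%) and a shared peak at 9 (6.04%), with KRTAP4-1 at a fold of 12.05, KRTAP1-5 at 11.6 and KRTAP4-2 at 11.2. The KRTAP4 genes are near-identical copies, so reads may not be assigned to 1 of them with certainty. Olfactory receptor genes had a site at 13 of 390 (3.33%, led by OR8D1 at 10.8) and a shared peak at 2 (0.513%), both lists having a median of 1 TSS position. Of the protocadherin cluster genes, PCDHGA5 alone of 53 (1.89%, median of 2) had a site, with a fold of 3.63, and 2 (3.77%) had a shared peak.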

How the data were processed

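The authors aligned ChIP-Seq reads to hg19 (BWA-MEM), dropped reads with a mapping quality under 10 and PCR duplicates (SAMtools), and ran MACS2 for each library with a q-value limit of 0.05. Which MACS2 version, control and filter for problematic regions they used is not given in the sources used here. The deposited lists give each peak's interval and summit, a fold enrichment (a ratio to local background), −log10 p-values and q-values and a score derived from q, all of them the authors' values. The 4 input libraries were not used here.

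Peaks of the 4 ChIP libraries were read as deposited, and an overlap was at least 1 bp. TSSs, genes and canonical transcripts were those of GENCODE 44 lifted to GRCh37. Sequence came from the GRCh37 assembly. Shares of peaks have exact Clopper-Pearson intervals and differences Newcombe intervals, at 95%, and the depth behind a single list is not known from the files. Features and words were compared between classes by two-sided Fisher's exact tests and between summit and flank by two-sided exact McNemar tests, with Benjamini-Hochberg adjustment over 4 features or 21 words and a threshold of 0.05. Comparisons within 10 G+C classes used the Mantel-Haenszel chi-square test. Gene lists were only counted.

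The sites, words, gene lists and tests were chosen with earlier results of these data known. Named were the 10 sites of highest fold (1 per gene), up to 3 genes of highest fold of each gene list, the site of highest fold for each of the 4 words most clearly more frequent at summits (chromosome 8 left out), and the 3 peaks just inside and outside the width and TSS limits. Some items that this rule names are not reported here. Genes with the most sites, and the peaks at the overlap limit, were added after their values were seen, as were HOXC5 as a gene singled out and the splits by distance, gap to HoxC5 and CpG richness. Alternatives were stricter peak thresholds, other definitions of overlap and promoter, other windows and flanks, comparison within G+C classes, and leaving out each endogenous replicate. The word tests were tested on simulated data. Computations ran in Python 3.11.15 with scipy 1.17.1, statsmodels 0.14.6, pysam 0.24.0, pandas 2.3.3 and numpy 2.4.6.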

Additional observations from a re-analysis of the deposited data

How the results depend on the processing

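The differences in CpG-rich windows, divergent promoters and upstream summits kept their direction and their call under every alternative run for them. The number of sites was 3085 with Pbx4 peaks of −log10 q of at least 5, 2722 with a fold of at least 5 and 2338 within 500 bp of a TSS. It was 5923 with HoxC5 peaks of a fold of at least 5 and 5844 when HoxC5 had to cover a larger part of the Pbx4 peak. When a HoxC5 peak within 500 bp counted as shared it was 3482, and with basic transcripts only 3593. The number of words more frequent at the sites than at the shared peaks, 3 as reported, was 1 with Pbx4 peaks of a fold of at least 5, with HoxC5 peaks of a fold of at least 5 and with 25 bp on either side, 5 with 100 bp, and 0 within G+C classes. The number less frequent at the summits than in the flanks, 3 as reported, was 1 within 500 bp of a TSS, and the number less frequent than inside genes, 5 as reported, was 2 within G+C classes. Directions turned for GGGCGG against the flank (2.35 points within 500 bp of a TSS), for TGACAG against the peaks inside genes (−0.0972 points with 1 peak per gene) and, within G+C classes against the shared peaks, for TAATGA (−1.32 points), TGACTCA (−3.52) and TGTGGTT (−0.125). The causes were not tested. Without endogenous HoxC5 replicate 1 there were 4653 sites, and without replicate 2 there were 4637. No paired analysis was possible because the replicate numbers are shared by endogenous HoxC5 and input libraries only, and Pbx4 has 1 library. Single words with few sites, such as ZNF143 with 1, are limited by the number of peaks, and no value here has a Pbx4 replicate.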

Other observations

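The chromosomes differed in the share of their genes with a Pbx4-only promoter site. The share of protein-coding genes with a site was highest on chromosome 15 (27.8% of 594 genes) and chromosome 4 (26.2% of 755) and lowest on chromosome X (12.5% of 862) and chromosome 19 (13.2% of 1436), against 19.8% over all. On chromosome 2 there were 385 Pbx4-only and 300 shared promoter sites, and on chromosome 14 there were 165 and 252. These values were chosen after they were seen and were not tested. Numbers of TSS positions and kinds of genes were not matched between chromosomes.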
